A study of Mus musculus with 6 samples.

Results

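Enteroendocrine hormones and granins were examined in cancer-associated fibroblasts (CAFs) sorted from colon tumors, through the 10 genes *Sct*, *Pyy*, *Gcg*, *Cck*, *Tph1*, *Chga*, *Chgb*, *Scg2*, *Scg5* and *Neurod1*. The genes were chosen by name, as known products of gut endocrine cells, with earlier results of these data known. Each matched 1 of the 49548 genes of the deposited table. Of the 6 libraries, 3 came from Col6a1+ CAFs (GFP+) and 3 from Col6a1- CAFs (Tomato+), and all of them from adenomas that AOM, a carcinogen, and DSS, which injures the colon lining, had induced in adult Col6a1-cre, Rosa26-mTmG mice on a C57/BL6 background. In this reporter every cell carries membrane Tomato until Cre replaces it with GFP, so both subsets bear the same alleles and treatment, and GFP marks a history of Col6a1Cre activity in telocytes, pericytes and some other fibroblasts. Each library came from the pooled tumors of several mice, and cells with CD45, CD31, Ter119 or EpCAM on their surface had been gated out before the GFP and Tomato sort. The gate was thus meant to leave out the epithelium, to which endocrine cells belong. Values are normalized counts of 3′ mRNA sequencing, which reads the ends of polyadenylated transcripts.

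Enteroendocrine cells are scattered hormone-producing cells of the intestinal epithelium that sense the gut contents and release peptides or serotonin from dense-core granules. Granins are acidic proteins that are packed into those granules along with the hormones and serve as general markers of endocrine and neuronal secretory cells. In the colon, L cells make PYY and glucagon-like peptides, and enterochromaffin cells make serotonin. Several of these genes are also active in neurons, and in rodents mast cells make serotonin through *Tph1* as well.

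*Col6a1* itself, whose promoter drives the Cre, followed the labels, with 861, 1287 and 1941 normalized counts in Col6a1+ CAFs and 182, 321 and 102 in Col6a1- CAFs (log2 fold change 2.82, adjusted p = 0.00613 by limma, and 0.0983 in a fit blocked on replicate number). All 12 fibroblast markers had reads in every library of both subsets. Of these, 9 were called, each of them higher in Col6a1+ CAFs (*Pdgfrb*, *Sparc* and *Col1a1* had the smallest adjusted p, and 0.0612 to 0.0779 with the block), and their summed level was 59502 to 75851 against 12430 to 21513 in Col6a1- CAFs. The normalized counts summed to between 3039152 and 3425249 per library. In the 5 libraries where the step between low values was resolved, 1 read was worth 0.661 to 1.33 normalized counts, so the low values given here stand for about as many reads. Col6a1+ replicate 1 had reads of 14530 genes, and the other libraries of 18770 to 20511. Where a library has 0, a level of up to 3 counts remains possible from counting error alone. Folds given as at least a value set a group with 0 in every library to 3 counts per library. They take the mean of the other group as observed, without its error, so they are not confidence limits. Nothing shows that the pools shared no mice, so p-values measure the spread between these samples. The test was limma on log2(normalized count + 1) over the 26402 genes whose counts summed to at least 1, with Benjamini-Hochberg adjustment, and the threshold for a call was an adjusted p of 0.05. A positive log2 fold change means a higher level in Col6a1+ CAFs, SE is the standard error of that fold change, and folds of low genes are understated on this scale. In bulk samples, fewer cells of a type and less RNA per cell cannot be told apart.

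The 250 bases before the start of *Sct*, *Cck* and *Chga* are shown because *Sct* and *Cck* were the members called, in opposite directions, and *Chga* is the general marker of the class. Capitals mark E-boxes (CANNTG, the motif of bHLH factors such as NEUROD1), the cAMP response motif TGACG and the TATA box TATAAA on either strand, where these occur. The sequences are those of RefSeq on GRCm38.p6, 5′ to 3′ on the gene's strand, at chr7:141279134-141279383 (minus strand), chr9:121495695-121495944 (minus strand) and chr12:102554691-102554940 (plus strand).
Sct: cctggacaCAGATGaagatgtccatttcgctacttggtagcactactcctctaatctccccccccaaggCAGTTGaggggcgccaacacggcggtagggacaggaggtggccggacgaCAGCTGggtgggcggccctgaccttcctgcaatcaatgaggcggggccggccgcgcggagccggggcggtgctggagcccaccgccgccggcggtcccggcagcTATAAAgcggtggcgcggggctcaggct
Cck: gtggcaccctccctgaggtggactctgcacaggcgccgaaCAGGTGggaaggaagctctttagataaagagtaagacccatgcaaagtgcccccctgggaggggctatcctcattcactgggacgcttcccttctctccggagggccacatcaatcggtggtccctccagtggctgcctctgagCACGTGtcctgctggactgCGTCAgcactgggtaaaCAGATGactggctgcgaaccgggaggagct
Chga: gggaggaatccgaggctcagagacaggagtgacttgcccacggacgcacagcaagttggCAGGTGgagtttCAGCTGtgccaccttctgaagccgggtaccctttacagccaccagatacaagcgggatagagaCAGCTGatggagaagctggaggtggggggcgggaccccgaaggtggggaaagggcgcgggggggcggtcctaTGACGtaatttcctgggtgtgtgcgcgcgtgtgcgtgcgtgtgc
*Sct* and *Cck* both held the E-box CAGATG, and *Sct* also held a TATA box. Over all 10 genes, CAGATG occurred in the windows of 3 genes and in 14.4% of all 32851 windows of the same length. The motif TGACG was found for 6 of the 10 genes and in 17.8% of all windows, TATAAA for 2 and in 12.4%, and any E-box, which includes CAGATG, for 9 and in 66.2%. *Pyy* and *Tph1* have a pair of annotated starts each, of which either could hold a match. A match of letters is a description of the window and not a binding site.

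Of the 10 genes, 9 had a log2 fold change below 0, against 58.8% of all genes tested, and *Cck* was the exception. The median over the 10 genes was -2.73, against -0.27 over all genes tested. The difference passed an adjusted p of 0.05 for *Sct*, which was lower in Col6a1+ CAFs, and for *Cck*, which was higher. In the same test 4.62% of all genes were called, 1.96% lower and 2.66% higher in Col6a1+ CAFs. For 5 of the 10 genes (*Sct*, *Pyy*, *Tph1*, *Chga* and *Chgb*) all Col6a1- libraries were above all Col6a1+ libraries, which held for 11.6% of all genes. In 4 of these (*Sct*, *Tph1*, *Chga* and *Chgb*) no read was counted in any Col6a1+ library while each Col6a1- library had some, a pattern of 1.21% of all genes. All 10 genes passed the filter on low values, but these 4 and *Neurod1* passed it through Col6a1- CAFs alone, so that they could only be lower in Col6a1+ CAFs. The members were also chosen with earlier results known, so the shares of all genes beside them are description and not a test. With the replicate number as a block, neither *Sct* nor *Cck* passed, as none of the 26402 genes did (limma, with 4418 genes at an unadjusted p under 0.05 and 1810 called by limma-voom without the block). With the block over the 13515 genes averaging at least 10 normalized counts, a setting added after the data were seen, 1852 genes were called. There *Sct* and *Cck* passed (adjusted p = 0.0299 and 0.0173 by limma). Values given elsewhere as with the block are those of the fit over 26402 genes.

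**Figure D1:**
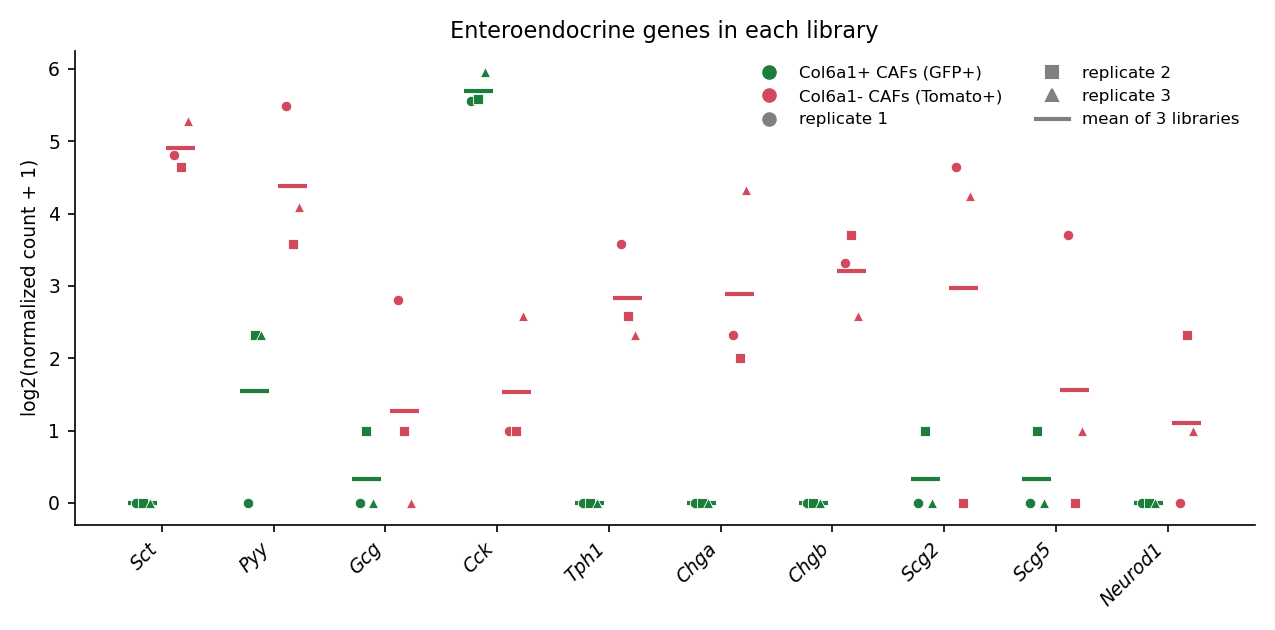
Level of each gene in each library, as log2 of the normalized count plus 1 on the vertical axis, with green for Col6a1+ CAFs, red for Col6a1- CAFs, 1 symbol per replicate number and a bar at the mean of 3 libraries. *Cck* is the gene with all green points (46 to 61 normalized counts) above all red points (1 to 5), whereas *Sct*, *Tph1*, *Chga* and *Chgb* have their green points at 0.

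Among the hormones, *Sct* (ENSMUSG00000038580, chromosome 7 from 141278330 to 141279133 of mm10) encodes secretin, which stimulates bicarbonate secretion. Col6a1- CAFs had 27, 24 and 38 normalized counts of it, and all 3 Col6a1+ libraries had 0. The Col6a1- libraries lay close together (29.7 ± 7.37, SD, n = 3), and the groups were far from overlapping. With the level of Col6a1+ CAFs set to 3 counts per library, *Sct* was lower there by at least 9.89-fold. Its fitted log2 fold change was -4.91 (SE 0.91, adjusted p = 0.0133 by limma, and 0.0719 with the block), and the alternatives gave 1.14e-04 to 0.0892. The call was lost when any 1 library other than Col6a1+ replicate 1 was left out (adjusted p between 0.0518 and 0.0892, against 0.0238 without that one), with fold changes of -5.05 to -4.73.

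*Pyy* (ENSMUSG00000017311, chromosome 11 from 102106676 to 102107832), which encodes the appetite-reducing peptide YY of L cells, had 44, 11 and 16 normalized counts in Col6a1- CAFs and 0, 4 and 4 in Col6a1+ CAFs. The lowest Col6a1- library was thus above the highest Col6a1+ library, but the Col6a1- libraries were spread widely, with replicate 1 well above the others. The fitted difference of -2.84 (log2, SE 1.06) missed the threshold (adjusted p = 0.191 by limma, with 0.102 to 0.456 over the alternatives). *Gcg* (ENSMUSG00000000394, chromosome 2 from 62474530 to 62483650), the precursor of glucagon and the glucagon-like peptides, had 6, 1 and 0 normalized counts in Col6a1- CAFs and 0, 1 and 0 in Col6a1+ CAFs. Its groups overlapped, both means were under 3 counts, and no difference was detectable at this depth (adjusted p = 0.603 by limma). Both L cell hormones had their highest value in Col6a1- replicate 1.

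*Cck* (ENSMUSG00000032532, chromosome 9 from 121489824 to 121495694) encodes cholecystokinin, a hormone of the upper intestine that acts on the gallbladder and pancreas and is also a neuropeptide. It had 46, 47 and 61 normalized counts in Col6a1+ CAFs and 1, 1 and 5 in Col6a1- CAFs. All Col6a1+ libraries were above all Col6a1- libraries, as in 7.91% of all genes, and the 3 Col6a1+ libraries were within a narrow range (51.3 ± 8.39, SD, n = 3), including Col6a1+ replicate 1, in which none of the other 9 genes had a read. The ratio of the means was 22.0. On the log2 scale the fold change was 4.17 (SE 0.85, adjusted p = 0.0204 by limma, and 0.0796 with the block), with adjusted p-values of 0.00735 to 0.119 over the alternatives. Leaving out any 1 library other than Col6a1+ replicate 1 ended the call (adjusted p between 0.0721 and 0.119, against 0.0436 without that one), while the fold change stayed between 3.91 and 4.70. It was the member whose direction was opposite to that of the other 9.

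For serotonin, *Tph1* (ENSMUSG00000040046, chromosome 7 from 46644641 to 46672537) encodes the rate-limiting enzyme of its synthesis outside the brain. It had 11, 5 and 4 normalized counts in Col6a1- CAFs and none in the Col6a1+ libraries, a level at least 2.22-fold lower. The bound was 1.5-fold without Col6a1- replicate 1 and 2.67-fold without Col6a1- replicate 3. The groups did not overlap. The fitted difference of -2.83 (log2, SE 0.78) missed the threshold (adjusted p = 0.0734 by limma, 0.132 with the block). It passed with limma-voom (adjusted p = 0.0127).

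*Chga* (ENSMUSG00000021194, chromosome 12 from 102554969 to 102565027), which encodes chromogranin A, had 4, 3 and 19 normalized counts in Col6a1- CAFs and 0 in each Col6a1+ CAF library. *Chgb* (ENSMUSG00000027350, chromosome 2 from 132781278 to 132795079), which encodes chromogranin B, had 9, 12 and 5 in Col6a1- CAFs and likewise 0 in Col6a1+ CAFs. By the observed means, both chromogranins were lower by at least 2.89-fold in Col6a1+ CAFs. For *Chga* this rested on Col6a1- replicate 3, without which the bound was 1.17-fold and the log2 fold change -2.16, while for *Chgb* the bound was 2.33 to 3.50-fold when 1 Col6a1- library was left out. The groups overlapped for neither gene, although their highest Col6a1- libraries differed. The fitted differences of -2.88 (log2, SE 0.88) for *Chga* and -3.20 (log2, SE 0.82) for *Chgb* missed the threshold (adjusted p = 0.102 and 0.0547 by limma), whereas both passed with limma-voom (adjusted p = 0.0160 and 0.00534). *Scg2* (ENSMUSG00000050711, chromosome 1 from 79434669 to 79440120), which encodes secretogranin II, had 24, 0 and 18 normalized counts in Col6a1- CAFs and 0, 1 and 0 in Col6a1+ CAFs. Col6a1- replicate 2 had no read of it and overlapped with Col6a1+ CAFs, and the log2 fold change of -2.63 (SE 1.24, adjusted p = 0.333 by limma) went to -4.11 without that library and to -1.79 without Col6a1- replicate 1. *Scg5* (ENSMUSG00000023236, chromosome 2 from 113776362 to 113829121), the chaperone of a prohormone convertase, had 12, 0 and 1 normalized counts in Col6a1- CAFs and 0, 1 and 0 in Col6a1+ CAFs. Its value rested on Col6a1- replicate 1, without which the log2 fold change of -1.23 (adjusted p = 0.591 by limma) was -0.17.

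*Neurod1* (ENSMUSG00000034701, chromosome 2 from 79452521 to 79456751), a bHLH transcription factor of endocrine differentiation, had 0, 4 and 1 normalized counts in Col6a1- CAFs and 0 in each Col6a1+ CAF library. It was close to the limit of detection, with a log2 fold change of -1.11 (SE 0.62, adjusted p = 0.434 by limma). *Neurod1* lies inside *Cerkl* on the same strand, which had 33, 6 and 7 normalized counts in Col6a1+ CAFs and 0, 4 and 3 in Col6a1- CAFs, so the assignment of its few reads is uncertain. No other member overlapped a gene of the table.

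**Figure D2:**
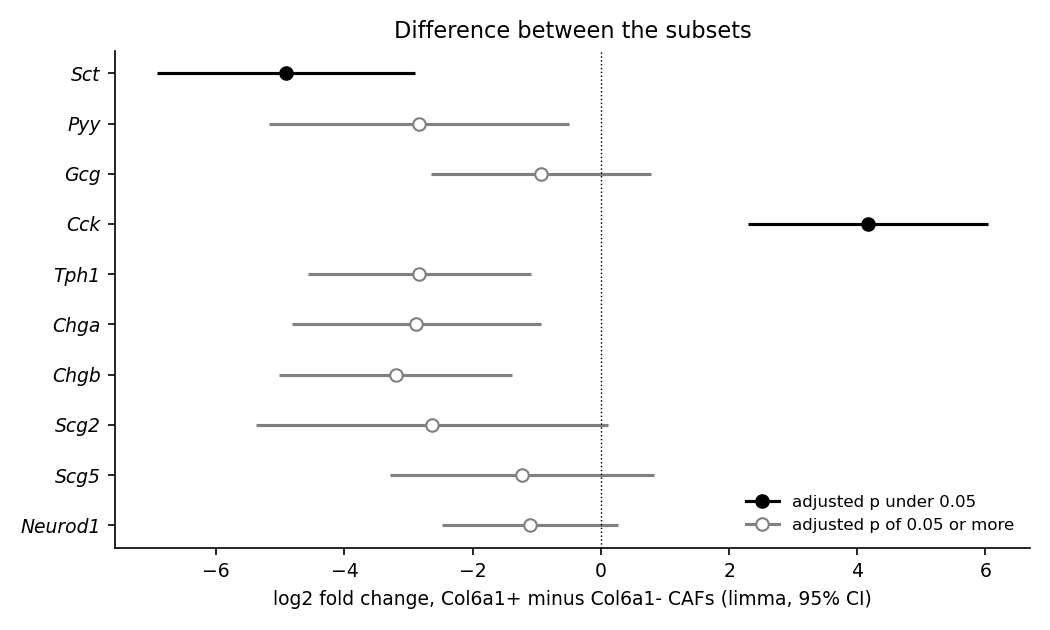
Log2 fold change of each gene between Col6a1+ and Col6a1- CAFs on the horizontal axis, with its 95% confidence interval from limma, n = 3 libraries per group. *Sct* (-4.91) and *Cck* (4.17), in black, passed an adjusted p of 0.05 and lie on opposite sides of 0, and the intervals of *Gcg*, *Scg2*, *Scg5* and *Neurod1* cross 0.

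Summed over all 10 members, the normalized counts were 46, 54 and 65 in Col6a1+ CAFs and 138, 61 and 107 in Col6a1- CAFs. These sums overlapped. *Cck* went the other way and was left out of a further sum with its direction known, which widens the separation. Over the 9 members other than *Cck*, the normalized counts were 0, 7 and 4 in Col6a1+ CAFs and 137, 60 and 102 in Col6a1- CAFs. Col6a1- replicate 1 was the highest of these libraries, with the highest values of *Pyy*, *Gcg*, *Tph1*, *Scg2* and *Scg5*, while *Sct* and *Chga* were highest in replicate 3 and *Chgb* and *Neurod1* in replicate 2. The members thus varied among the 3 Col6a1- libraries without a shared order. Genes near the mean profile of the 10 members were sought by the root mean square difference of centred log2 values over the 6 libraries. The nearest included *Atp10a*, *Glul*, *Gstm5* and *Parp1*, with differences of 0.0962 to 0.176 on the log2 scale. This profile averages *Cck* with the 9 members of opposite direction. The genes named had reads in every library (for *Glul* 702, 891 and 712 against 4062, 2153 and 3664 normalized counts), unlike *Sct*, *Tph1*, *Chga* and *Chgb*.

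The list of 22 epithelial markers moved with this group. All 22 had a log2 fold change below 0 and 14 were called lower in Col6a1+ CAFs, against 1.96% of all genes. The epithelial adhesion gene *Epcam*, whose protein was used in the gate, had 1074, 884 and 615 normalized counts in Col6a1+ CAFs and 3107, 4129 and 3730 in Col6a1- CAFs (log2 fold change -2.12, SE 0.29, adjusted p = 0.00331 by limma, and 0.0625 with the block). *Krt18* and *Cdh1*, a keratin and the epithelial cadherin, were called in the same direction with log2 fold changes of -3.24 and -2.25 (adjusted p = 0.0612 for each with the block), and no epithelial marker was at 0 in all libraries. The summed level of the list was 6893 to 9493 in Col6a1+ CAFs and 29539 to 50316 in Col6a1- CAFs. Per 1000 normalized counts of these markers, the 9 members other than *Cck* had 0, 0.737 and 0.451 in Col6a1+ CAFs and 4.64, 1.19 and 2.27 in Col6a1- CAFs, a scale chosen after the values were seen and on which the groups did not overlap either. Col6a1- replicate 2 had the highest summed epithelial level and the lowest summed level of the 9 members among the Col6a1- libraries. The part of epithelial RNA in the difference of the members was not tested. *Cck* went against the epithelial markers in direction.

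Markers of the other cell types were compared in the same way. All 12 mast cell markers had a fold change below 0, 2 were called lower (*Mcpt1* and *Mcpt2*, mast cell proteases, with log2 fold changes of -6.96 and -5.96), and their sum was 16 to 38 in Col6a1+ CAFs and 326 to 733 in Col6a1- CAFs. *Mcpt1* had 0 in each Col6a1+ CAF library and 116, 294 and 55 in Col6a1- CAFs. The part of mast cells in the level of *Tph1* was not tested. Of the enteric neuron markers, 15 of 18 had reads, 7 had a fold change above 0 and 8 below (median -0.01), and 1 was called (*Tubb3*, a tubulin, higher in Col6a1+ CAFs). Their sum was 287 to 505 in Col6a1+ CAFs and 168 to 226 in Col6a1- CAFs, but without *Tubb3* and *Uchl1* it overlapped, at 109, 124 and 202 against 144, 202 and 126. The neuronal genes *Chrna3* and *Nefl* were at 0 in every library. Of the 9 glial markers, 7 had a fold change above 0 and 2 below (median 0.86), and 0 were called. *Erbb3*, 1 of the 2 below 0, had a log2 fold change of -1.65 (adjusted p = 0.236 by limma). The sums of the glial list overlapped, at 71 to 94 in Col6a1+ CAFs and 70 to 132 in Col6a1- CAFs. Of the immune markers, *S100a8* was called lower in Col6a1+ CAFs, with sums of 186 to 490 and 600 to 1400. Of the 10 endothelial markers, *Tie1* was called higher and *Prox1* lower in Col6a1+ CAFs. *Prox1*, a lymphatic and also epithelial transcription factor gene, had 2154, 1100 and 2644 normalized counts in Col6a1- CAFs and made up most of the sum of that list there (1404 to 3009, against 270 to 443 in Col6a1+ CAFs). Without *Prox1* the sums of the endothelial list overlapped between the groups. With the block, the adjusted p of *Mcpt1*, *Mcpt2*, *Tubb3*, *S100a8*, *Tie1* and *Prox1* lay between 0.0612 and 0.144, and *Tie1* was also not called in any of the 6 refits that left out 1 library. Of these refits, 5 called *Mcpt1*, 3 each called *Mcpt2*, *S100a8* and *Prox1*, and 1 called *Tubb3*.

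**Figure D3:**
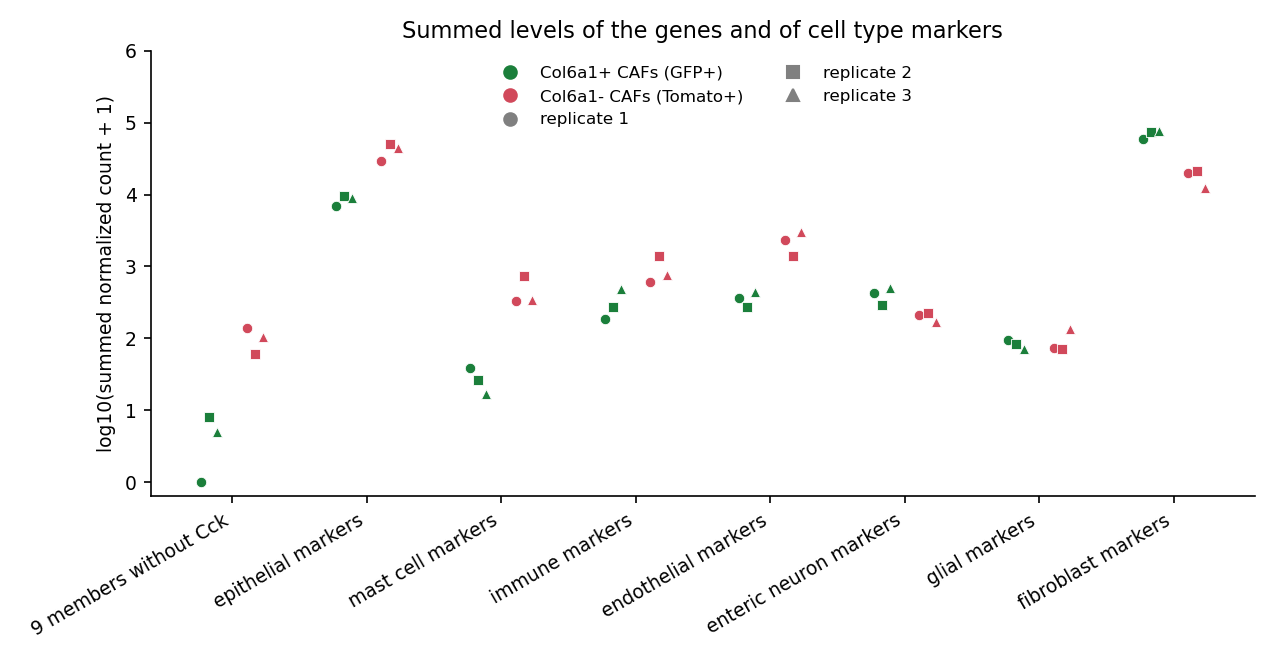
Summed normalized counts of the 9 genes other than *Cck* and of 7 lists of cell type markers in each library, as log10 of the sum plus 1 on the vertical axis, with green for Col6a1+ CAFs, red for Col6a1- CAFs and 1 symbol per replicate number. The 9 genes and the epithelial, mast cell, immune and endothelial markers have all red points above all green points (for epithelial markers 29539 to 50316 against 6893 to 9493), and the fibroblast markers the reverse, as do the enteric neuron markers, whose sums overlap without *Tubb3* and *Uchl1*. The sums of the endothelial markers overlap without *Prox1*. With *Cck* added to the 9 genes, their sums overlap as well (61 to 138 in Col6a1- CAFs against 46 to 65 in Col6a1+ CAFs).

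Among 15 other hormones and gut peptides, 12 had reads, and 1 was called in each direction. *Npy*, which encodes the neuronal peptide NPY of the same family as PYY, had 192, 30 and 159 normalized counts in Col6a1- CAFs and 0 in each Col6a1+ CAF library, at least 42.3-fold lower in Col6a1+ CAFs (log2 fold change -6.62, SE 0.98, adjusted p = 0.00462 by limma, and 0.0659 with the block). *Ppy* (chromosome 11 from 102099930 to 102101319), a neighbour of *Pyy* on the same strand that encodes pancreatic polypeptide, had the opposite pattern, with 24, 7 and 13 normalized counts in Col6a1+ CAFs and 0 in each Col6a1- CAF library. Its level in Col6a1+ CAFs was higher by at least 4.89-fold (log2 fold change 3.82, SE 0.91, adjusted p = 0.0397 by limma, and 0.108 with the block). When 1 library was left out, *Npy* was called in 4 of 6 refits and *Ppy* in 1. Of the 3 genes of the NPY family, *Npy* had reads in Col6a1- libraries alone, *Ppy* in Col6a1+ libraries alone and *Pyy* in both. Neurotensin (*Nts*) and the tachykinin gene *Tac1*, picked after their values were seen, did not overlap between the groups but were not called, with 47, 22 and 14 against 0, 0 and 4 normalized counts for *Nts* and 69, 41 and 15 against 1, 2 and 4 for *Tac1* (adjusted p = 0.0685 and 0.0603 by limma).

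In the list of 14 other granins and granule enzymes, *Cadps*, which primes dense-core granules for release, was called lower in Col6a1+ CAFs, with 0, 3 and 5 normalized counts against 125, 38 and 91 (log2 fold change -4.73, SE 0.92, adjusted p = 0.0169 by limma). *Ptprn*, a receptor-like protein of the granule membrane, was called higher, with 284, 58 and 118 against 38, 2 and 1 (log2 fold change 4.35, SE 1.08, adjusted p = 0.0474 by limma). The call of *Ptprn* was lost when any 1 library was left out, and its log2 fold change ran from 3.54 (Col6a1- replicate 3 left out) to 5.69 (Col6a1- replicate 1 left out). The other 12 genes were not called, and the summed level of the list overlapped between the groups. *Pam* made up most of that sum, with 489, 508 and 490 normalized counts in Col6a1+ CAFs and 681, 476 and 486 in Col6a1- CAFs. The sum therefore says little about the genes of few counts in the list. Of 20 transcription factors of the endocrine lineage, 13 had reads and 1 was called. It was *Foxa2*, a forkhead factor of gut endoderm, with 20, 18 and 13 normalized counts in Col6a1+ CAFs and 364, 112 and 326 in Col6a1- CAFs (log2 fold change -3.75, SE 0.53, adjusted p = 0.00358 by limma). *Pax4*, *Rfx6*, *Fev*, *St18* and *Hmx2* were at 0 in every library. Among 10 genes of serotonin synthesis and transport, 2 were called, both lower in Col6a1+ CAFs. *Ddc*, the decarboxylase that follows *Tph1* in the pathway, had 48, 66 and 31 against 244, 267 and 151 normalized counts (log2 fold change -2.19, SE 0.42, adjusted p = 0.0164 by limma), and *Slc18a1*, the vesicular monoamine transporter of endocrine cells, had 38, 8 and 8 against 152, 86 and 191 (log2 fold change -3.22, SE 0.66, adjusted p = 0.0217 by limma). With the block, the adjusted p of *Cadps*, *Ptprn*, *Foxa2*, *Ddc* and *Slc18a1* lay between 0.0629 and 0.113. When 1 library was left out, *Foxa2* was called in 4 of 6 refits, and *Cadps*, *Ddc* and *Slc18a1* in 1 each.

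On the receiving side, 15 of 24 receptor genes of gut hormones and serotonin had reads, of which 2 were called higher and 1 lower in Col6a1+ CAFs. The receptor of glucagon-like peptide 2, *Glp2r*, had 301, 151 and 141 normalized counts in Col6a1+ CAFs and 28, 4 and 16 in Col6a1- CAFs (log2 fold change 3.79, SE 0.67, adjusted p = 0.0110 by limma). The glucagon receptor gene *Gcgr* had 15, 25 and 39 in Col6a1+ CAFs and 0 in each Col6a1- CAF library, at least 8.78-fold higher (log2 fold change 4.67, SE 0.93, adjusted p = 0.0186 by limma). Both are receptors of products of *Gcg*, for which no difference was detectable. *Npy2r*, a receptor of PYY and NPY, was called lower, with 0, 0 and 1 against 43, 15 and 31 normalized counts (log2 fold change -4.49, SE 0.96, adjusted p = 0.0258 by limma). The secretin receptor gene *Sctr*, picked after its values were seen, had 0, 10 and 13 normalized counts in Col6a1+ CAFs and 0 in each Col6a1- CAF library, and was not called (adjusted p = 0.265 by limma). Of the cholecystokinin receptor genes, *Cckbr* was at 0 in every library, and *Cckar* had 0, 1 and 1 normalized counts in Col6a1+ CAFs and 6, 2 and 0 in Col6a1- CAFs. With the block, the adjusted p was 0.0680 for *Glp2r*, 0.0797 for *Gcgr* and 0.0904 for *Npy2r*. The call of *Glp2r* was also lost when any 1 library was left out (log2 fold change 3.07 to 4.34). *Gcgr* and *Npy2r* were each called in 1 of these 6 refits. Of 15 nutrient and mechanical sensors of endocrine cells, 11 had reads and 3 were called, all higher in Col6a1+ CAFs. These were the olfactory receptor genes *Olfr558* and *Olfr78* and the mechanosensitive channel gene *Piezo2*, which are also active in mural or other stromal cells, with log2 fold changes of 6.09, 7.52 and 2.73 (adjusted p = 0.0612 to 0.0719 with the block). When 1 library was left out, *Olfr558* and *Olfr78* were each called in 5 of 6 refits and *Piezo2* in 1.

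**Figure D4:**
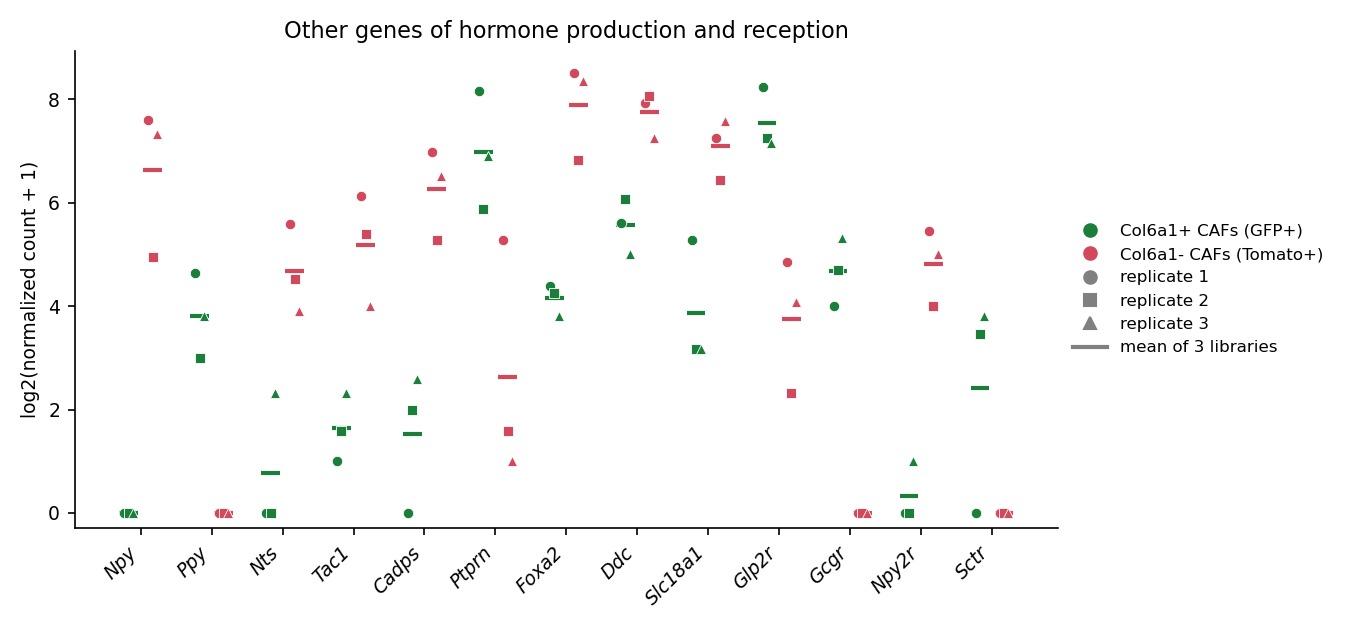
Level of 13 other genes of hormone production and reception in each library, as log2 of the normalized count plus 1 on the vertical axis, with green for Col6a1+ CAFs, red for Col6a1- CAFs, 1 symbol per replicate number and a bar at the mean of 3 libraries. *Ppy*, *Ptprn*, *Glp2r* and *Gcgr* have all green points above all red points (for *Glp2r* 141 to 301 against 4 to 28 normalized counts), and *Npy*, *Nts*, *Tac1*, *Cadps*, *Foxa2*, *Ddc*, *Slc18a1* and *Npy2r* the reverse.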

How the data were processed

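3′ mRNA sequencing of 6 libraries was analysed, 3 of Col6a1+ CAFs and 3 of Col6a1- CAFs, grouped and numbered by their labels. The authors mapped the reads with TopHat2 and Bowtie2 to mm10, counted them per gene with GenomicRanges and scaled them with DESeq through metaseqR. They deposited log2 values of the normalized count plus 1, and back on the linear scale 100% of the values are whole numbers (within 1e-06). Their own columns of means, fold changes, p-values and false discovery rates were not used, nor were 6 per-sample columns scaled to gene length.

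The deposited log2 values were fitted with limma 3.58.1 (lmFit, eBayes with trend) in R 4.3.3 over the 26402 genes whose normalized counts summed to at least 1, two-sided, with Benjamini-Hochberg adjustment, since the table holds normalized values and not reads. Other steps used Python 3.11.15, NumPy 2.4.6, pandas 2.3.3 and Matplotlib 3.10.9. The fit was tested on simulated data in which only genes of a higher mean than most members were changed. That test therefore does not cover genes of few counts. The sums of normalized counts (3039152 to 3425249) carry the authors' scaling, and at this depth genes of few counts have wide errors.

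Nothing in the labels says what a replicate number shares between the subsets. Deviations from the group means were correlated over the 13515 genes averaging at least 10 normalized counts. Same-numbered libraries had correlations of 0.245, 0.125 and 0.144. Differently numbered ones had -0.245 to 0.15, and the highest of these was above 0.125 and 0.144. The correlations thus do not settle whether the numbers are pairs. The paper's figure legend counts 3 samples in total, each from a pool of tumors, whereas there are 6 libraries. Both subsets may therefore have been sorted from the same pools, but which numbers would form pairs is not stated. The fit used for calls has no pairing, and the block is given where a call changes.

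The members and lists were chosen with earlier results of these data known. The genes named are the members, from each list the up to 3 called genes with the smallest adjusted p or else the 2 most abundant, the 5 genes nearest to the members' mean profile, and *Col6a1*, except that some of these are not reported here. *Nts*, *Tac1*, *Sctr*, *Cckar*, *Uchl1*, *Pam* and the genes named as at 0 in every library were named outside this rule, after their values were seen. All members have a promoter window in RefSeq. Alternatives were library size alone, other filters, a pseudocount of 0.1, limma-voom, the replicate block and leaving out each library, and the block over genes averaging at least 10 was added after seeing the data.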

Additional observations from a re-analysis of the deposited data

How the results depend on the processing

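Of the 116 refits of single members, 99 kept the direction and the side of an adjusted p of 0.05, 14 lost a call (*Sct* and *Cck*) and 3 gained one (*Chga*, *Chgb* and *Tph1* with limma-voom), and none changed direction. No member had 10 normalized counts in every library, and only *Sct*, *Cck* and *Pyy* had a mean of at least 10, so the other members have no value under those filters. With the replicate block and with no filter on low values, 0 members were called in either direction (*Sct* and *Cck* adjusted p = 0.0719 and 0.0796 with the block, 0.0656 and 0.0848 with no filter). With the block over genes averaging at least 10, both passed (0.0299 and 0.0173). limma-voom called 4 members lower in Col6a1+ CAFs. When 1 library was left out, 0 to 1 members were called higher and 0 to 1 lower.

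Over all genes, 703 were called higher and 517 lower in Col6a1+ CAFs. These counts were 21 and 7 with no filter, where many genes at 0 enter the fit, 0 and 0 with the replicate block, and 11 to 453 and 1 to 442 when 1 library was left out. The count lower was 1006 with limma-voom, 336 with a pseudocount of 0.1 and 871 with the block over genes averaging at least 10. With that last setting the count higher was 981. Over the other lists, 18 genes were called higher and 24 lower. The counts were 0 and 0 with no filter and with the block, and 1 to 13 and 0 to 17 when 1 library was left out, and 39 were lower with limma-voom and 15 with a pseudocount of 0.1. The causes of these shifts were not tested. The median of all genes shifted by less than 0.1 with library size alone (-0.31 against -0.27). Most members had under 20 normalized counts in a library, and differences of a few counts were not detectable at this depth. No group had more than 3 libraries, too few for a test of single outlying libraries.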
